A study of Mus musculus with 36 samples.

Results

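Neurexins, neuroligins and leucine-rich repeat transmembrane (LRRTM) proteins are adhesion molecules of the synapse, and 9 of their genes were read here across the hippocampus of 6 inbred mouse strains. The 9 genes were taken by symbol: Nrxn2, Nrxn3, Nlgn1, Nlgn2, Nlgn3, Lrrtm1, Lrrtm2, Lrrtm3 and Lrrtm4. All 9 were found in each of the 6 strain tables, among 37315 genes, and all 9 passed the filter on low counts, which kept 19702 genes.

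Neurexins sit in the presynaptic membrane and bind partners across the cleft. Neuroligins and LRRTM proteins are such partners in the postsynaptic membrane, and they compete for overlapping sites on neurexins. Nlgn1 and the LRRTM proteins are best known from excitatory synapses, Nlgn2 from inhibitory synapses, and Nlgn3 from both.

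Whole hippocampus from adult males and females of C57BL/6J, PWD/Ph, DBA/2J, DBA/1J, A/J and 129S1/SvImJ was read by mRNA sequencing, with 1 library per animal, 3 animals per sex and strain, and 36 libraries in 12 groups. No animal was treated. In PWD/Ph and DBA/2J both sexes were aged 62 days. In DBA/1J, A/J and 129S1/SvImJ females were aged 63 days and males 62, and in C57BL/6J 64 and 63. PWD/Ph mice, a strain derived from wild Mus musculus musculus, were housed singly and all other strains in groups, so strain and housing cannot be told apart for PWD/Ph. The added control RNA mix differed between the sexes. Libraries were sequenced 6 to a lane. Which libraries shared a lane is not stated in the labels, so lane and strain were not tested against each other.

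Total counts ran from 6493512 to 35232515 with a median of 21144604, and 3 DBA/2J libraries (male 2, female 2 and female 3) held 7814418, 7422602 and 6493512. The libraries differed in how their counts depended on GC content, the percentage of G and C bases in a gene's longest transcript. The median log2 deviation of the 20% of genes with the highest GC content, minus that of the 20% with the lowest, averaged 0.62 ± 0.18 (SD, n = 6) in 129S1/SvImJ, 0.47 ± 0.15 in DBA/1J, 0.11 ± 0.15 in A/J, -0.13 ± 0.092 in C57BL/6J, -0.35 ± 0.081 in DBA/2J and -0.71 ± 0.42 in PWD/Ph. Differences of a strain from the mean of the others are therefore given with TMM scaling alone and again after each library's trend on GC content and transcript length was removed ("corrected"). CPM, FPKM and the order of strains are without the correction.

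The 9 genes spanned much of the GC range. Longest transcripts of Nrxn2 (62.4% GC) and Nlgn2 (60.7%) were the richest, and those of Nlgn1 (38.9%), Lrrtm2 (38.4%) and Lrrtm4 (38.4%) the poorest. The coding part of Nlgn1 held 45.9% GC and its 7426-base 3′ untranslated region 33.2%, against 62.7% and 54.4% over 2084 bases in Nlgn2. The sequences below show the contrast among neuroligins and in Nrxn2: each is the middle 120 bases of the largest coding exon, from GENCODE M21 transcripts on GRCm38, with G and C in capitals. They lie at chr3:25433991-25434110 (minus strand) for Nlgn1, chr11:69825583-69825702 (minus) for Nlgn2, chrX:101319780-101319899 (plus) for Nlgn3 and chr19:6531647-6531766 (plus) for Nrxn2.
Nlgn1: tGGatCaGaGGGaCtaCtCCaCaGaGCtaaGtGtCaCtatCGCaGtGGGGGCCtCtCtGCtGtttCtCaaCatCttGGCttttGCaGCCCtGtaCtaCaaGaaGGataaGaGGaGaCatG
Nlgn2: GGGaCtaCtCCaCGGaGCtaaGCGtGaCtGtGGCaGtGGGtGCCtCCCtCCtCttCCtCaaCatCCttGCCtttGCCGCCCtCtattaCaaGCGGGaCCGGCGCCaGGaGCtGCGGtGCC
Nlgn3: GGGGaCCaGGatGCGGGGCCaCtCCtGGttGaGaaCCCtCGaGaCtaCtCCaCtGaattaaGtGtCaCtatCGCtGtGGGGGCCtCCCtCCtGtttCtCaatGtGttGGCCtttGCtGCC
Nrxn2: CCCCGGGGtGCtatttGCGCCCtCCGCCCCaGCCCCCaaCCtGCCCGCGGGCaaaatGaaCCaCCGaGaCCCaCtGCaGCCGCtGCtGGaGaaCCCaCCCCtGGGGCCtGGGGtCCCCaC
G and C made up 60 of the 120 bases in Nlgn1, 69 in Nlgn3, 76 in Nlgn2 and 86 in Nrxn2.

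Per length, Nrxn2 was the most abundant of the 9, at a mean of 75.9 FPKM over the 36 libraries, followed by Nlgn2 (40.0 FPKM), Nrxn3 (35.4), Lrrtm1 (24.9), Nlgn3 (24.5), Nlgn1 (15.4), Lrrtm4 (11.7), Lrrtm2 (10.3) and Lrrtm3 (7.40). In PWD/Ph Nrxn2 was not first, at 40.7 ± 17.8 FPKM (SD, n = 6) against 42.3 ± 1.95 for Nrxn3. Among the neuroligins, Nlgn2 made up 49.7% ± 4.48 (SD, n = 36) of their summed FPKM, Nlgn3 30.8% ± 1.90 and Nlgn1 19.5% ± 3.47. Among the LRRTM genes, Lrrtm1 made up 45.2% ± 6.97, Lrrtm4 21.6% ± 2.62, Lrrtm2 19.6% ± 5.40 and Lrrtm3 13.6% ± 2.40. The share of Lrrtm1 ran from 36% ± 5.74 (n = 6) in PWD/Ph to 55.1% ± 3.62 in 129S1/SvImJ, and that of Lrrtm2 from 26.6% ± 3.50 in PWD/Ph to 12.3% ± 1.64 in 129S1/SvImJ.

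**Figure D1:**
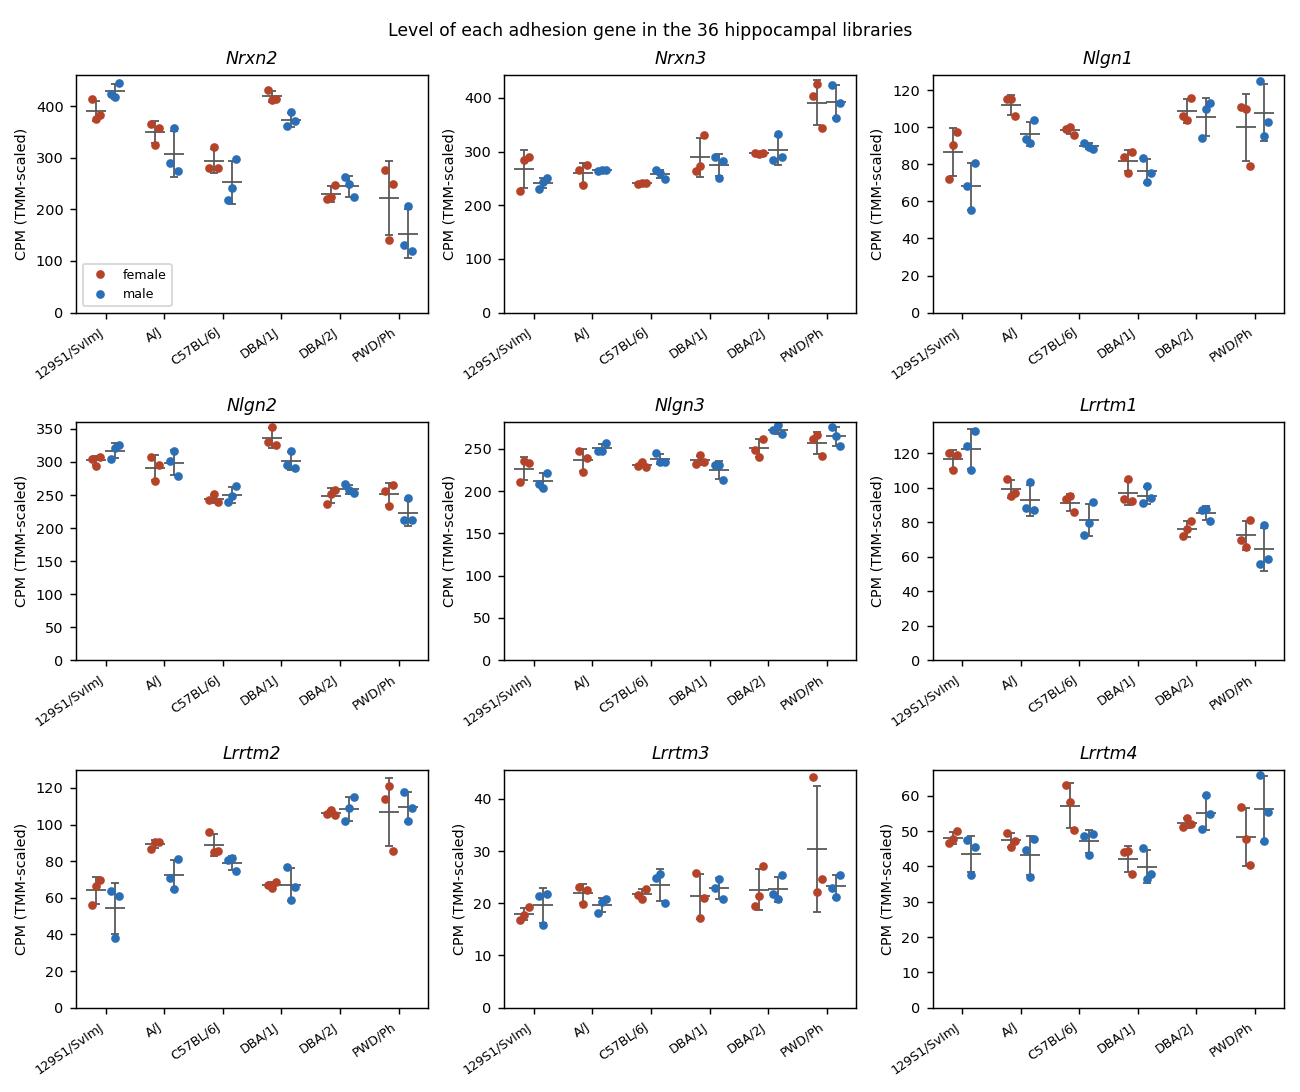
Level of each gene (CPM, counts relative to the TMM-scaled library size, on a linear axis from 0) in every library, by strain and sex (3 females and 3 males per strain); the horizontal marks are group means and the bars SDs. Nrxn3 is highest in all 6 PWD/Ph libraries and Lrrtm1 in all 6 129S1/SvImJ libraries.

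The question the design puts first is whether strains differ. All 9 genes differed between strains in edgeR's quasi-likelihood test (adjusted p from 3.33e-10 for Nrxn3 to 0.0133 for Lrrtm3), where 92.0% of all genes tested were called. After the correction 8 of 9 were called, all but Lrrtm3 (adjusted p = 0.346), against 89.2% of all genes. Lrrtm3 also lost its call without PWD/Ph male 3 (adjusted p = 0.0535). Of 54 differences of a strain from the mean of the other 5, 33 were called with TMM scaling and 22 after the correction. Of these, 9 were called both ways in 1 direction, as were 28.7% to 45.0% of all genes by strain. Another 8 were called both ways in opposite directions, as were 0.00522% to 6.15% of all genes.

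Per strain, the members called with TMM scaling were 8 of 9 in 129S1/SvImJ (67.4% of all genes), 3 in A/J (33.2%), 2 in C57BL/6J (34.7%), 5 in DBA/1J (53.4%), 7 in DBA/2J (49.5%) and 8 in PWD/Ph (70.5%). After the correction they were 7 in 129S1/SvImJ (55.8%), 2 in A/J (35.6%), 4 in C57BL/6J (40.9%), 2 in DBA/1J (40.8%), 2 in DBA/2J (40.9%) and 5 in PWD/Ph (62.3%). Among pairs of strains, 78 of 135 differences were called with TMM scaling (19.3% to 73.8% of all genes by pair) and 55 after the correction (20.9% to 62.7%), 20 of them both ways in 1 direction and 16 both ways in opposite directions.

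Between 129S1/SvImJ and each other strain, the members called out of 9, with the share of all genes, were 5 for A/J (50.4%) and 4 after the correction (44.2%), 6 for C57BL/6J (60.8%) and 7 after the correction (52.3%), 1 for DBA/1J (40.7%) and 5 after the correction (44.2%), 8 for DBA/2J (66.2%) and 5 after the correction (51.1%), and 9 for PWD/Ph (73.8%) and 6 after the correction (62.7%). Between A/J and the strains other than 129S1/SvImJ, they were 1 for C57BL/6J (19.3%) and 1 after the correction (20.9%), 2 for DBA/1J (37.2%) and 3 after the correction (34.2%), 6 for DBA/2J (48.9%) and 2 after the correction (41.6%), and 8 for PWD/Ph (66.5%) and 5 after the correction (58.5%). A/J and C57BL/6J thus had 1 call by each reading, in different members, and 129S1/SvImJ and PWD/Ph held all 9 with TMM scaling. Between C57BL/6J and the remaining strains they were 6 for DBA/1J (48.8%) and 1 after the correction (34.2%), 3 for DBA/2J (36.9%) and 2 after the correction (39.3%), and 5 for PWD/Ph (60.3%) and 4 after the correction (57.9%). Between DBA/1J and the others they were 7 for DBA/2J (54.9%) and 2 after the correction (35.8%), and 8 for PWD/Ph (70.5%) and 4 after the correction (59.8%). Between DBA/2J and PWD/Ph 3 were called (46.1%) and 4 after the correction (45.7%).

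**Figure D2:**
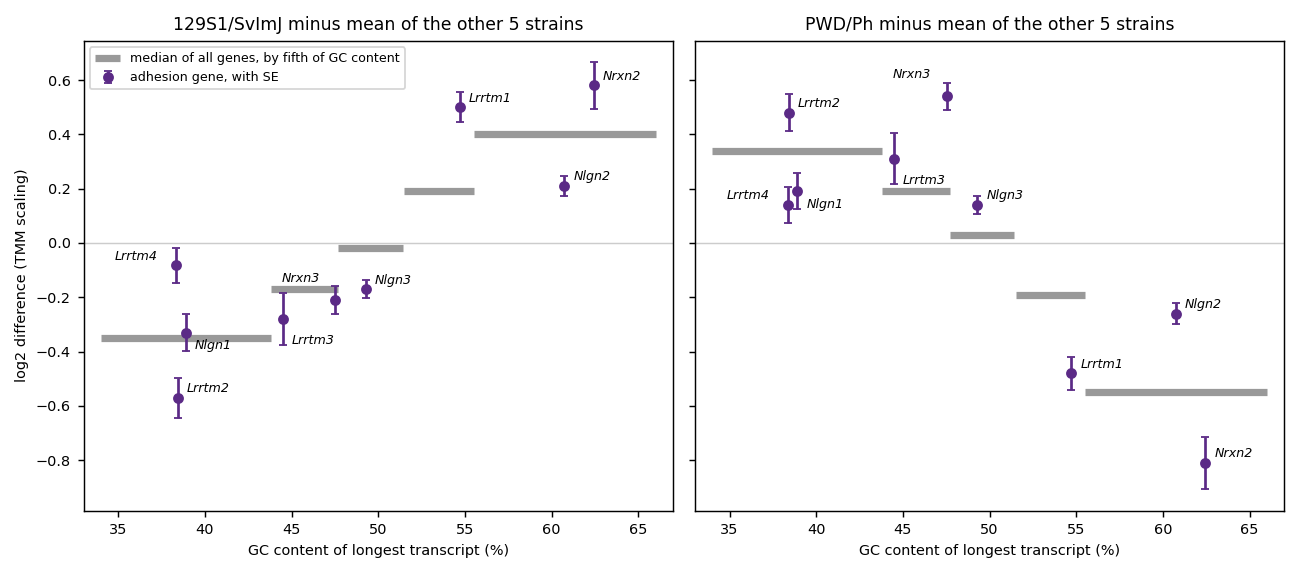
Difference from the mean of the other 5 strains (log2, TMM scaling) against GC content of the longest transcript, for 129S1/SvImJ and PWD/Ph; points are the 9 genes with SE and grey bars the median of all genes in each of 5 equal classes of GC content. In 129S1/SvImJ the medians run from -0.35 to 0.40 with rising GC content, in PWD/Ph from 0.34 to -0.55, and Nrxn2, Nlgn2 and Lrrtm1 lie above 0 in 129S1/SvImJ and below 0 in PWD/Ph.

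Among the presynaptic genes, Nrxn3 stood highest in PWD/Ph. Its 6 PWD/Ph libraries read 404, 425 and 344 CPM in females and 424, 363 and 391 in males. All 6 lay above all 30 libraries of the other strains, a separation shown by 7.56% of all genes for PWD/Ph in either direction. Nrxn3 was 1.46-fold higher in PWD/Ph than the mean of the others (log2 0.54 ± 0.049 SE, adjusted p = 2.93e-11), and corrected by 0.36 ± 0.040 (adjusted p = 3.16e-09). After the correction the PWD/Ph libraries overlapped the others.

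The other strains ranked DBA/2J (300 ± 17.0 CPM, SD, n = 6), DBA/1J (282 ± 27.4), A/J (262 ± 12.5), 129S1/SvImJ (254 ± 26.8) and C57BL/6J (250 ± 10.6) for Nrxn3. PWD/Ph differed from DBA/2J, the next in order, by both readings (log2 0.39, adjusted p = 1.43e-05, and 0.35, adjusted p = 2.21e-06, corrected). No other neighbours differed past the threshold with TMM scaling. After the correction 129S1/SvImJ was above A/J (0.20, adjusted p = 0.00307) and above C57BL/6J (0.33, adjusted p = 5.38e-06). Nrxn3 was lower in C57BL/6J by both readings (log2 -0.24, adjusted p = 5.61e-04, and -0.28, adjusted p = 2.55e-06, corrected). It was also lower in A/J (-0.15, adjusted p = 0.0217, and -0.13, adjusted p = 0.0175), a TMM call that was lost without A/J female 2 (adjusted p = 0.101), without PWD/Ph (-0.045, adjusted p = 0.545) and in limma on FPKM. In 129S1/SvImJ the sign turned, from -0.21 (adjusted p = 7.75e-04) to 0.11 (adjusted p = 0.0222), but with a correction on GC content alone it was -0.081 (adjusted p = 0.178).

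Nrxn2 had the widest range of the 9 genes. It fell from 410 ± 25.8 CPM in 129S1/SvImJ and 396 ± 27.0 in DBA/1J through 328 ± 38.8 in A/J, 273 ± 37.6 in C57BL/6J and 237 ± 17.6 in DBA/2J to 187 ± 66.7 in PWD/Ph. With TMM scaling DBA/2J and PWD/Ph were the only neighbours that differed (log2 0.37, adjusted p = 0.0114). This call was lost without PWD/Ph male 3 or female 2 (adjusted p up to 0.0729), and the difference turned to -0.18 (adjusted p = 0.0125) after the correction. Corrected, 129S1/SvImJ and DBA/1J differed as well (0.14, adjusted p = 0.0449). Within PWD/Ph the libraries spread widely, at 277, 140 and 249 CPM in females and 131, 207 and 120 in males. The 2 libraries with the steepest GC trend, males 1 and 3 (-1.26 and -1.02), had the lowest Nrxn2.

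The correction removed most of the range of Nrxn2. The range of its strain means was 1.20 on the log2 scale before and 0.35 after, and the SD within groups 0.23 before and 0.10 after. The difference of PWD/Ph from the others went from -0.81 ± 0.097 (adjusted p = 1.19e-08) to -0.0090 ± 0.046 (adjusted p = 0.884), and that of DBA/1J from 0.52 (adjusted p = 1.04e-05) to 0.029 (adjusted p = 0.646). By both readings Nrxn2 was higher in 129S1/SvImJ (0.58, adjusted p = 7.52e-07, and 0.20, adjusted p = 2.90e-04, corrected) and lower in DBA/2J (-0.36, adjusted p = 0.00177, and -0.23, adjusted p = 2.37e-04). Neither call held with a correction on GC content alone (0.053, adjusted p = 0.326, in 129S1/SvImJ and -0.074, adjusted p = 0.192, in DBA/2J).

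**Figure D3:**
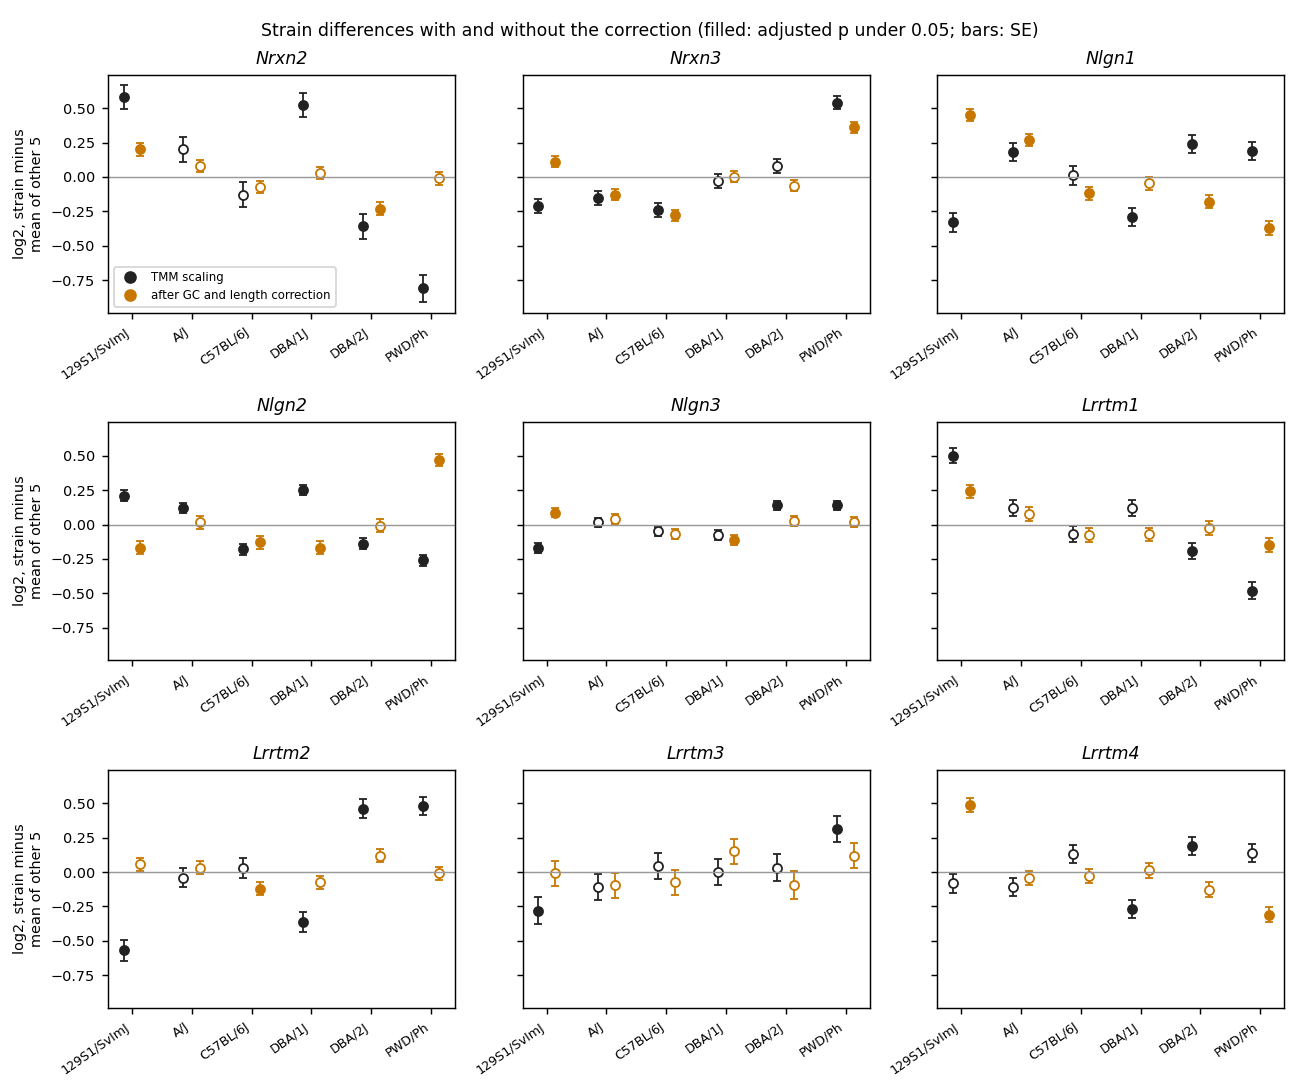
Difference of each strain from the mean of the other 5 (log2 with SE), with TMM scaling and after the GC and length correction; filled points have an adjusted p under 0.05. Nrxn3 in PWD/Ph and Lrrtm1 in 129S1/SvImJ stay above 0 both ways, while Nlgn1, Nlgn2 and Lrrtm4 change sign in 129S1/SvImJ and PWD/Ph.

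Among the postsynaptic genes, Nlgn2, whose protein anchors inhibitory synapses together with gephyrin, read 319 ± 22.9 CPM in DBA/1J, 310 ± 11.7 in 129S1/SvImJ, 295 ± 17.3 in A/J, 254 ± 10.0 in DBA/2J, 247 ± 8.98 in C57BL/6J and 237 ± 22.4 in PWD/Ph. With TMM scaling A/J and DBA/2J were the only neighbours that differed (log2 0.22, adjusted p = 5.09e-04), a call lost after the correction (0.021, adjusted p = 0.819). Corrected, PWD/Ph was above C57BL/6J by 0.50 (adjusted p = 2.30e-08) and A/J above 129S1/SvImJ by 0.16 (adjusted p = 0.0330). With TMM scaling Nlgn2 was lower in PWD/Ph (-0.26, adjusted p = 8.67e-07) and after the correction higher (0.47, adjusted p = 1.47e-10), when all 6 PWD/Ph libraries lay above the other 30, a separation shown by 7.72% of all genes on corrected values. It turned the other way in 129S1/SvImJ (0.21, adjusted p = 1.80e-05, to -0.17, adjusted p = 0.00252) and DBA/1J (0.25, adjusted p = 1.89e-06, to -0.17, adjusted p = 0.00388). Only in C57BL/6J was Nlgn2 called both ways in 1 direction (-0.18, adjusted p = 3.96e-04, and -0.13, adjusted p = 0.0246). The corrected median of all genes in C57BL/6J was itself below 0, from -0.040 to -0.056 over the 5 classes of GC content. It was -0.050 in the class that holds Nlgn2. The correction widened the spread of Nlgn2. Its SD within groups was 0.074 before and 0.11 after on the log2 scale, and within the PWD/Ph groups 0.11 and 0.23. Corrected values were highest in PWD/Ph male 1, male 3 and female 2 (8.80, 8.63 and 8.62 log2 CPM). These libraries had the steepest GC trends (-1.26, -1.02 and -0.87).

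Nlgn1, the neuroligin of excitatory synapses, read 107 ± 7.78 CPM in DBA/2J, 104 ± 10.1 in A/J, 104 ± 15.6 in PWD/Ph, 94.1 ± 4.94 in C57BL/6J, 79.2 ± 6.22 in DBA/1J and 77.4 ± 15.3 in 129S1/SvImJ. With TMM scaling C57BL/6J and DBA/1J were the only neighbours that differed (log2 0.25, adjusted p = 0.0179). This call was lost when any of 13 libraries was left out (adjusted p up to 0.0877) and after the correction (-0.064, adjusted p = 0.444). The other 4 pairs of neighbours differed after the correction: A/J was above DBA/2J by 0.38 (adjusted p = 1.08e-05) and above PWD/Ph by 0.53 (adjusted p = 8.27e-09), C57BL/6J above PWD/Ph by 0.21 (adjusted p = 0.00494) and 129S1/SvImJ above DBA/1J by 0.42 (adjusted p = 1.99e-06). After the correction 129S1/SvImJ moved from the lowest to the highest strain (-0.33, adjusted p = 7.85e-05, to 0.45, adjusted p = 8.09e-10). With a correction on GC content alone it was 0.18 (adjusted p = 0.00780), and A/J was higher (0.21, adjusted p = 0.00298). PWD/Ph moved from 0.19 (adjusted p = 0.0137), a call lost without PWD/Ph male 1, female 1 or female 2 (adjusted p up to 0.113), to -0.37 (adjusted p = 8.70e-08). DBA/2J moved from 0.24 (adjusted p = 0.00366) to -0.18 (adjusted p = 0.00349), but was 0.034 (adjusted p = 0.661) with a correction on GC content alone. A/J was higher both ways (0.18, adjusted p = 0.0301, and 0.27, adjusted p = 2.36e-05), but the TMM call was lost when any of 10 libraries was left out (adjusted p up to 0.112).

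Nlgn3, on the X chromosome, varied least, from 262 ± 13.9 CPM in DBA/2J and 261 ± 11.8 in PWD/Ph through 244 ± 11.7 in A/J, 235 ± 5.80 in C57BL/6J and 231 ± 9.74 in DBA/1J to 219 ± 13.3 in 129S1/SvImJ. With TMM scaling PWD/Ph and A/J were the only neighbours that differed (log2 0.10, adjusted p = 0.0420). This call was lost when any of 8 libraries was left out (adjusted p up to 0.135), and the sign turned after the correction (-0.017, adjusted p = 0.768) and in limma on FPKM. Corrected, 129S1/SvImJ was above DBA/1J by 0.16 (adjusted p = 0.00612). Nlgn3 was lower in 129S1/SvImJ with TMM scaling (-0.17, adjusted p = 7.32e-05) and higher after the correction (0.087, adjusted p = 0.0408), but with a correction on GC content alone it was again lower (-0.12, adjusted p = 0.0106). With TMM scaling it was higher in DBA/2J (0.14, adjusted p = 9.15e-04) and PWD/Ph (0.14, adjusted p = 5.17e-04). Corrected, these were 0.026 (adjusted p = 0.602) and 0.020 (adjusted p = 0.652), and in limma on log2(FPKM + 1) they were -0.18 (adjusted p = 0.0110) and -0.11 (adjusted p = 0.0998). Its counts are uncertain, because Nlgn3 shares 3823 exonic bases with Gm21986 on the same strand, and counts assigned to Gm21986 came to a median of 48.7% of those of Nlgn3. In FPKM Gm21986 had a median of 0.460 and a highest value of 1.20, against a median of 24.0 for Nlgn3.

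Lrrtm1, an LRRTM gene of excitatory synapses, stood highest in 129S1/SvImJ, at 120, 110 and 119 CPM in females and 124, 110 and 133 in males. All 6 libraries lay above the other 30, a separation shown by 4.25% of all genes for 129S1/SvImJ. Lrrtm1 was 1.41-fold higher there than the mean of the others (log2 0.50 ± 0.054, adjusted p = 2.74e-09), and 0.24 ± 0.048 higher on the log2 scale after the correction (adjusted p = 6.54e-05), when the libraries overlapped. PWD/Ph was lowest, at 69.5, 65.8 and 81.5 CPM in females and 55.7, 78.2 and 58.5 in males (-0.48, adjusted p = 2.24e-08, and -0.15, adjusted p = 0.0134, corrected). Between them came DBA/1J (96.1 ± 5.45 CPM), A/J (96.1 ± 7.54), C57BL/6J (86.3 ± 8.77) and DBA/2J (80.6 ± 6.22), and 129S1/SvImJ differed from DBA/1J, its neighbour, by both readings (0.31, adjusted p = 9.31e-04, and 0.26, adjusted p = 0.00101, corrected). DBA/2J and PWD/Ph differed with TMM scaling (0.24, adjusted p = 0.00900), a call lost without PWD/Ph male 3 or female 2 (adjusted p up to 0.0594) and after the correction (0.10, adjusted p = 0.228).

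Lrrtm2, a close relative of Lrrtm1, had nearly the reverse order, from 108 ± 13.1 CPM in PWD/Ph and 107 ± 4.23 in DBA/2J through 83.9 ± 7.13 in C57BL/6J, 80.8 ± 10.6 in A/J and 67 ± 5.78 in DBA/1J to 59.2 ± 11.3 in 129S1/SvImJ. DBA/2J was above C57BL/6J by both readings (log2 0.36, adjusted p = 0.00270, and 0.20, adjusted p = 0.0107, corrected), though not in limma on FPKM. A/J and DBA/1J differed with TMM scaling (0.26, adjusted p = 0.0245), a call lost when any of 14 libraries was left out (adjusted p up to 0.0851) and after the correction (0.088, adjusted p = 0.275). The correction took the range of its strain means from 0.89 to 0.20 on the log2 scale. The difference of 129S1/SvImJ went from -0.57 (adjusted p = 6.29e-08) to 0.056 (adjusted p = 0.324) and that of PWD/Ph from 0.48 (adjusted p = 3.66e-07) to -0.0080 (adjusted p = 0.902).

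Lrrtm3 and Lrrtm4, which bind heparan sulfate on neurexins and glypicans, had no neighbours in the strain order that differed past the threshold with TMM scaling. Lrrtm3 ran from 26.8 ± 8.70 CPM in PWD/Ph to 18.8 ± 2.41 in 129S1/SvImJ. Its PWD/Ph call (log2 0.31, adjusted p = 0.00383) was lost without PWD/Ph female 1 (adjusted p = 0.159), which read 44.2 CPM against 21.2 to 25.5 in the other 5, and no strain was called for Lrrtm3 after the correction. In limma on log2(FPKM + 1) the PWD/Ph difference was -0.25 (adjusted p = 0.0425), and that of 129S1/SvImJ was 0.15 (adjusted p = 0.212) against -0.28 (adjusted p = 0.0108) with TMM scaling, a call lost without 129S1/SvImJ male 2 (adjusted p = 0.0615).

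Lrrtm4 ran from 53.7 ± 3.55 CPM in DBA/2J to 41.0 ± 3.97 in DBA/1J, the 2 strains called with TMM scaling (log2 0.19, adjusted p = 0.0197, and -0.27, adjusted p = 9.42e-04). After the correction the calls were others: 129S1/SvImJ went from -0.083 (adjusted p = 0.268) to 0.49 (adjusted p = 6.11e-10), with its 6 libraries above the other 30 (2.66% of all genes separated so on corrected values), and PWD/Ph from 0.14 (adjusted p = 0.0578) to -0.31 (adjusted p = 6.29e-06). Among neighbours, 129S1/SvImJ was then above C57BL/6J by 0.43 (adjusted p = 1.98e-06) and above A/J by 0.45 (adjusted p = 1.71e-06), and C57BL/6J above PWD/Ph by 0.24 (adjusted p = 0.00293). The DBA/2J call was lost when any of 11 libraries was left out (adjusted p up to 0.107). Lrrtm4 shares 1543 exonic bases with Gm4409 on the opposite strand, to which counts of a median 47.6% of those of Lrrtm4 were assigned. Whether counting used strand is not stated in the labels, so in the counts reads of the pair cannot be told apart. In FPKM Gm4409 had a median of 0.0168 and a highest value of 0.0978, against a median of 11.5 for Lrrtm4.

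The second question of the design is whether males and females differ. None of the 9 genes was called for sex, either averaged over strains (0.239% of all genes called) or in any of the 54 comparisons within strains. Within strains the share of all genes called was 0.102% in 129S1/SvImJ, 5.32% in A/J, 0.279% in C57BL/6J, 0.0609% in DBA/1J, 0.0508% in DBA/2J and 0.122% in PWD/Ph. None of the 9 was called for an interaction of sex and strain (1.64% of all genes). At an unadjusted p under 0.05 the averaged comparison held 2 members, the comparisons within strains 7 of 54 and the interaction 0. The share of all genes at that unadjusted threshold is not given here, so no conclusion is drawn from these counts. DESeq2 also called 0 members in each of these comparisons.

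Averaged over strains, Nlgn1 and Nrxn2 were the members with an unadjusted p under 0.05. For Nlgn1 females had 97.9 ± 14 CPM (SD, n = 18; lowest 72.2, median 99.5, highest 116) and males 90.7 ± 17.0 (55.5, 91.5 and 125). The ranges overlapped almost wholly (log2 0.12 ± 0.050, adjusted p = 0.260, edgeR). Within A/J and within C57BL/6J all females lay above all males for Nlgn1, with and without the correction. In CPM 34.5% and 25.5% of all genes separated by sex there, in either direction. In DBA/1J Nlgn1 did so only after the correction, and in the other strains the sexes overlapped by both readings. For Nrxn2 females had 317 ± 82.5 CPM (140, 323 and 431) and males 293 ± 96.9 (120, 282 and 444), with ranges that overlapped as much (0.15 ± 0.068, adjusted p = 0.310). These SDs and ranges also hold the differences between strains, whereas the test averages the differences of the sexes within strains. The 95% intervals of the averaged difference were narrowest for Nlgn3, at -0.072 to 0.031 on the log2 scale around -0.020.

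The largest sex difference within a strain was that of Nrxn2 in PWD/Ph (log2 0.54 ± 0.17, adjusted p = 0.148), from the 6 values given above, in which the sexes overlapped. It passed the threshold without PWD/Ph male 2 (0.80, adjusted p = 0.00328) or without PWD/Ph female 2 (0.77, adjusted p = 0.00265), and so did the interaction for Nrxn2 (adjusted p = 0.0443 and 0.0337). Leaving out any other PWD/Ph library made the sex difference smaller. It was 0.44 without male 1, 0.38 without male 3, 0.35 without female 1 and 0.45 without female 3 (adjusted p from 0.406 to 0.643). The adjusted p of the interaction was then 0.456 to 0.495. With all libraries and after the correction the sex difference was 0.10 (adjusted p = 0.735). Over these PWD/Ph libraries the GC trend was -0.57, -0.87 and -0.10 in females and -1.26, -0.46 and -1.02 in males, and its part in the difference was not tested beyond the correction.

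After the correction 1 of the 54 was called: Lrrtm2 in A/J (log2 0.26, adjusted p = 0.0423), where 11.1% of all genes were called. In the strains with no member called the share of all genes was 0.162% in 129S1/SvImJ, 1.03% in C57BL/6J, 0.0836% in DBA/1J, 0.183% in DBA/2J and 0.110% in PWD/Ph. The averaged comparison and the interaction also held 0 members after the correction, against 0.810% and 4.27% of all genes. The TMM difference of Lrrtm2 in A/J was 0.30 (adjusted p = 0.173). The 3 A/J females read 86.6, 90.7 and 90.2 CPM and the 3 males 70.9, 65.0 and 81.3. All females lay above all males, a separation that 34.5% of all genes showed in A/J in either direction.

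**Figure D4:**
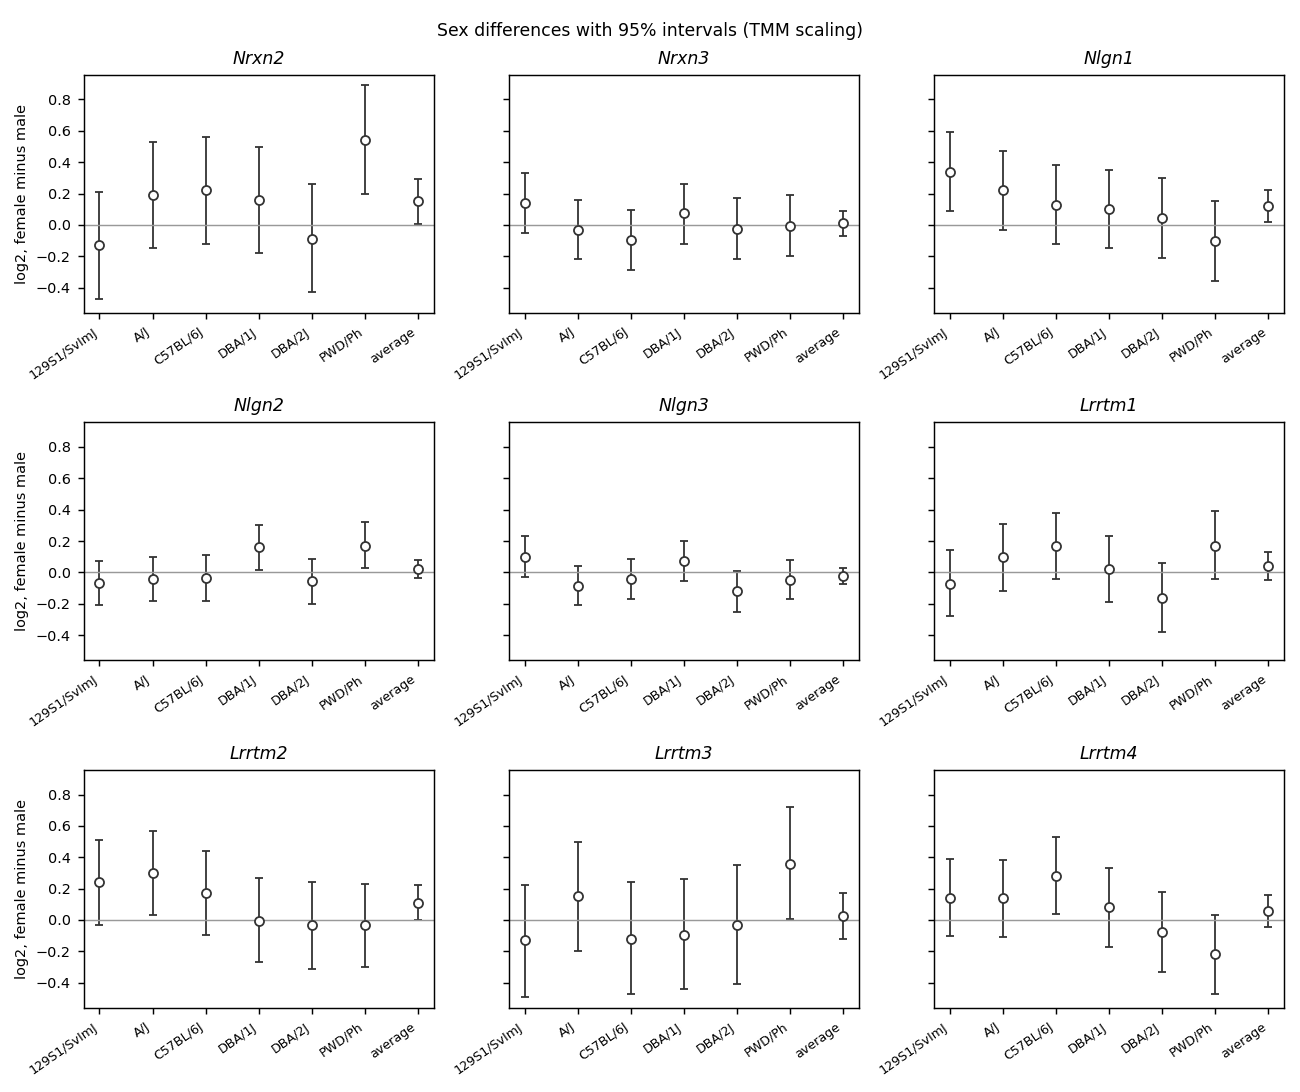
Female minus male difference of each gene (log2, TMM scaling) in each strain and averaged over strains; bars are 95% intervals and no point passed an adjusted p of 0.05. The averaged differences lie between -0.020 and 0.15.

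Markers of the tissue were checked in the same libraries. All 4 excitatory neuron markers (Slc17a7, Camk2a, Neurod6 and Neurod2) passed the filter in these libraries, and their summed level ran from 4344 ± 370 CPM in PWD/Ph and 4500 ± 283 in DBA/2J to 6621 ± 262 in 129S1/SvImJ, with every library at 3794 or above. The sum of 4 hippocampal subfield markers (Prox1, Wfs1, Zbtb20 and Spink8) ran the other way, from 817 ± 164 in 129S1/SvImJ to 1333 ± 210 in PWD/Ph and 1540 ± 85.2 in DBA/2J. The sum of 4 microglia markers was between 122 ± 6.64 (PWD/Ph) and 211 ± 10.2 (A/J), that of 4 astrocyte markers between 860 ± 70.0 (129S1/SvImJ) and 1142 ± 468 (DBA/1J), that of 3 endothelial markers between 94.3 ± 19.9 (129S1/SvImJ) and 127 ± 5.21 (DBA/1J), and that of 2 oligodendrocyte precursor markers between 63.4 ± 7.44 (PWD/Ph) and 82.2 ± 3.10 (A/J). For the astrocyte sum, DBA/1J libraries ran from 886 to 2094 CPM and C57BL/6J libraries from 1053 to 1139. The sum of 4 inhibitory neuron markers was between 571 ± 26.4 (DBA/2J) and 693 ± 49.0 (PWD/Ph), and that of 4 pan-neuronal markers between 4489 ± 83.6 (C57BL/6J) and 4947 ± 102 (A/J). The sum of 5 oligodendrocyte markers was lowest in PWD/Ph (2189 ± 429) and highest in 129S1/SvImJ (3975 ± 1050). The sum of 4 choroid plexus markers, a tissue next to the hippocampus, varied within strains, from 23.8 to 3099 CPM over the libraries, with a marker at 0 in a DBA/2J library. The part of these differences in those of the 9 genes was not tested, and in whole tissue fewer cells of a type and less RNA per cell cannot be told apart.

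Wider lists, 12 in number, held 74 genes: partners of neurexins and neuroligins, other synaptic adhesion families, heparan sulfate proteoglycans, scaffold genes and splicing regulators. They also held the alpha-catenin genes, listed only because LRRTM genes lie within them. Of the 74, 52 were called in 129S1/SvImJ with TMM scaling, 21 higher and 31 lower, where 35.3% of all genes were higher and 32.1% lower. In PWD/Ph 55 were called, 32 higher and 23 lower, against 34.4% and 36% of all genes. After the correction 36 were called in 129S1/SvImJ, where 33.1% of all genes were higher and 22.7% lower, and 47 in PWD/Ph (35.7% and 26.5%). For sex averaged over strains 0 of 74 were called (0.239% of all genes). After the correction 2 were called (0.810% of all genes), Mdga1 (-0.16, adjusted p = 0.0257) and Khdrbs1 (0.11, adjusted p = 0.0481). Mdga1 binds neuroligins and keeps neurexins from them, and Khdrbs1 is a splicing regulator.

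In PWD/Ph, 7 of 9 secreted neurexin partners (cerebellins, C1q-like proteins and neurexophilins) were called with TMM scaling (70.5% of all genes), 5 higher and 2 lower, with a median of 0.34 against -0.024 over all genes. After the correction 5 were called (62.3% of all genes), all higher, with a median of 0.33 against 0.040. Nxph1, a secreted neurexin ligand, was higher both ways (0.45, adjusted p = 4.74e-08, and 0.37, adjusted p = 4.92e-06), whereas C1ql2 went from -0.81 (adjusted p = 4.11e-07) to 0.22 (adjusted p = 0.00683).

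Of 13 genes of the excitatory postsynaptic scaffold, 10 were called in PWD/Ph (70.5% of all genes), 5 in each direction, and after the correction 10 (62.3%), of which 9 were higher (35.7% of all genes). Homer1, which links metabotropic glutamate receptors to the scaffold, was higher both ways (1.02, adjusted p = 2.99e-14, and 0.48, adjusted p = 4.10e-09). Shank3, a core scaffold protein, turned from -0.60 (adjusted p = 1.12e-07) to 0.19 (adjusted p = 4.71e-05). Among the 2 suppressors of neuroligin binding, Mdga1 was lower in PWD/Ph both ways (-0.80, adjusted p = 1.38e-13, and -0.28, adjusted p = 1.53e-05). In 129S1/SvImJ Mdga1 was higher (0.32, adjusted p = 2.35e-06, and 0.12, adjusted p = 0.0278) and Mdga2 lower (-0.85, adjusted p = 8.08e-11, and -0.25, adjusted p = 0.00336).

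By Pearson's r of log2 CPM over the 12 group means, among 12679 genes, the genes nearest to Nrxn2 were Sema6b (r = 0.996) and Palm (0.995), and the nearest to Lrrtm2 were Crebrf (0.995) and B3galt1 (0.993). Those nearest to Lrrtm1 were Cend1 (0.989) and Nhp2 (0.986), and to Nrxn3 Arhgap35 (0.979) and Zswim6 (0.975). Nlgn2 was nearest to Carm1 (0.975) and Mgrn1 (0.973), Nlgn1 to Lcorl (0.969) and Mef2a (0.955), and Nlgn3 to Pag1 (0.960) and Fam160b1 (0.957). Lrrtm3 was nearest to Grm8 (0.941) and Fnbp1l (0.933), and Lrrtm4 to Dab1 (0.941) and Mak16 (0.929). The group means share their libraries, and the GC content of the nearest genes was 63.5% and 55.9% for Nrxn2 (62.4%), 39.1% and 40.1% for Lrrtm2 (38.4%), 41.9% and 34% for Lrrtm3 (44.5%), and 46.2% and 44.0% for Lrrtm4 (38.4%).

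The genes lie on GRCm38 at chr19:6418731-6544169 (Nrxn2), chr12:88722876-90334935 (Nrxn3), chr3:25426215-26332460 (Nlgn1), chr11:69823122-69837784 (Nlgn2), chrX:101299168-101325963 (Nlgn3), chr6:77242689-77257791 (Lrrtm1), chr18:35209003-35215024 (Lrrtm2), chr10:63928472-64090277 (Lrrtm3) and chr6:80018877-80810143 (Lrrtm4). Lrrtm1, Lrrtm2 and Lrrtm3 lie on the opposite strand within Ctnna2, Ctnna1 and Ctnna3, genes of alpha-catenins, and Lrrtm2 shares 95 exonic bases with Ctnna1.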

How the data were processed

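Hippocampal RNA of 36 mice was measured by RNA sequencing. Per the submitters' processing notes, Cufflinks 2.1.1, DESeq2 1.8.1, SAMtools, TopHat2 2.0.13 and Trimmomatic 0.32 were used with GRCm38 (mm10), in roles not given in the sources used here. Per gene, the authors deposited raw counts and FPKM, side by side in 1 table per strain. Ensembl identifiers were matched to symbols (35449 of 37315). Members and gene lists were chosen with earlier results of these data known.

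Counts were fitted with edgeR 4.0.16 in R 4.3.3 (quasi-likelihood F test, TMM scaling, a mean per group, 24 residual degrees of freedom), after filterByExpr with a minimum count of 10 and total of 15. P-values were adjusted by Benjamini-Hochberg over all 19702 genes, and calls are at 0.05. SE is the log2 difference divided by the root of F, and intervals use 24 degrees of freedom. CPM use TMM-scaled library sizes. The correction removed from each library a loess trend (span 0.5) on GC content and then log2 length of the longest GENCODE M21 transcript. It leaves 19147 genes, and would also remove a real difference that follows GC content.

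Alternatives were DESeq2 1.42.0, its size factors, other filters, limma 3.58.1 on log2(FPKM + 0.1) and log2(FPKM + 1), each strain alone, the replicate block, leaving out each library, the shallow libraries or PWD/Ph, and, added after seeing the data, 3 further forms of the correction. Named genes are all 9 members, up to 3 genes per list with the smallest p, and the 2 genes nearest each member with at least 5 CPM. Per the labels, libraries come from separate animals. Counting precision: the lowest count of any member in any library was 156.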

Additional observations from a re-analysis of the deposited data

Results flagged for a closer look

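In 5 of 54 sets of 6 libraries (1 gene in 1 strain), the highest or lowest library stood apart from the other 5, where chance gives about 1 in 20. Lrrtm3 in PWD/Ph female 1 read 44.2 CPM against 21.2 to 25.5 in the others, from 442 counts, and stood apart after the correction too (5.34 against 4.24 to 4.61, log2 CPM). Nrxn3 in DBA/2J male 2, a shallow library, read 333 CPM against 284 to 298, and 8.28 against 8.04 to 8.11 (log2 CPM) after the correction. Nrxn3 in A/J female 2 read 238 CPM against 264 to 275, Lrrtm4 in 129S1/SvImJ male 2 read 37.7 against 45.5 to 49.9, and Nlgn3 in C57BL/6J male 1 read 245 against 229 to 235. After the correction these no longer stood clearly apart. Nrxn3 read 7.96 against 7.99 to 8.15 (log2 CPM) and Lrrtm4 5.87 against 5.89 to 6.09. Nlgn3, at 7.81, lay within the 7.77 to 7.97 of the others.

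In 2 genes all females lay on 1 side of all males in a strain and on the other side in another strain, in CPM. Without regard to side, 14.2% of all genes had no overlap of the sexes in 129S1/SvImJ, 9.13% in DBA/1J and 14.3% in DBA/2J. For Nrxn2 the female minus male difference was -0.13 in 129S1/SvImJ and 0.16 in DBA/1J (log2), and for Nlgn3 it was 0.072 in DBA/1J and -0.12 in DBA/2J. The difference between these pairs of strains was not tested. After the correction neither gene showed this. Females and males then overlapped for Nrxn2 in 129S1/SvImJ and DBA/1J, and for Nlgn3 in DBA/1J but not in DBA/2J. The interaction over all 6 strains did not pass the threshold in edgeR (adjusted p = 0.296 for Nrxn2 and 0.315 for Nlgn3).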

How the results depend on the processing

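Of 180 values of single members, 0 that were called in either fit turned in sign under DESeq2, its size factors, either other filter, the replicate block, without the shallow DBA/2J libraries or without any 1 library. Nor did any of the 54 values from each strain's own 6 libraries or of the 150 without PWD/Ph. Calls moved more: over all the fits without 1 library, 69 were lost and 63 gained. The corrections, 3 of them added after seeing the data, and FPKM turned signs. The values listed are the log2 difference from the mean of the other 5 strains ("in") or between 2 strains ("for"). Of the 135 differences between pairs of strains, the 180 values hold only those between neighbours in a gene's order of levels. Pairs further apart that turned are not listed, and 16 of the 135 were called in opposite directions with TMM scaling and after the GC and length correction. The cause was not tested.

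With the GC and length correction, 29 values turned. Nrxn2 turned to -0.18 for DBA/2J minus PWD/Ph. Nrxn3 turned to 0.11 in 129S1/SvImJ and 0.20 for 129S1/SvImJ minus A/J. Nlgn1 turned to 0.45 in 129S1/SvImJ, -0.12 in C57BL/6J, -0.18 in DBA/2J, -0.37 in PWD/Ph, 0.38 for A/J minus DBA/2J, 0.53 for A/J minus PWD/Ph, 0.21 for C57BL/6J minus PWD/Ph, -0.064 for C57BL/6J minus DBA/1J and 0.42 for 129S1/SvImJ minus DBA/1J. Nlgn2 turned to -0.17 in 129S1/SvImJ, -0.17 in DBA/1J, 0.47 in PWD/Ph, -0.16 for 129S1/SvImJ minus A/J and -0.50 for C57BL/6J minus PWD/Ph. Nlgn3 turned to 0.087 in 129S1/SvImJ, 0.017 for A/J minus PWD/Ph and 0.16 for 129S1/SvImJ minus DBA/1J. Lrrtm2 turned to 0.056 in 129S1/SvImJ, -0.12 in C57BL/6J and -0.0080 in PWD/Ph. Lrrtm4 turned to 0.49 in 129S1/SvImJ, 0.012 in DBA/1J, -0.13 in DBA/2J, -0.31 in PWD/Ph, 0.24 for C57BL/6J minus PWD/Ph and 0.43 for 129S1/SvImJ minus C57BL/6J.

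With a loess span of 0.3, 28 turned, and where the value was another than above: Nrxn2 turned to 0.0047 in PWD/Ph and -0.19 for DBA/2J minus PWD/Ph. Nrxn3 turned to 0.12 in 129S1/SvImJ. Nlgn1 turned to -0.17 in DBA/2J, 0.37 for A/J minus DBA/2J, -0.037 for C57BL/6J minus DBA/1J and 0.44 for 129S1/SvImJ minus DBA/1J. Nlgn2 turned to -0.18 in DBA/1J, 0.48 in PWD/Ph, -0.15 for 129S1/SvImJ minus A/J and -0.51 for C57BL/6J minus PWD/Ph. Nlgn3 turned to 0.091 in 129S1/SvImJ and 0.17 for 129S1/SvImJ minus DBA/1J. Lrrtm2 turned to 0.071 in 129S1/SvImJ and -0.022 in PWD/Ph. Lrrtm4 turned to 0.50 in 129S1/SvImJ, -0.32 in PWD/Ph and 0.26 for C57BL/6J minus PWD/Ph. With the correction and the replicate block, 29 turned, and likewise: Nlgn3 turned to 0.088 in 129S1/SvImJ and 0.019 for A/J minus PWD/Ph. Lrrtm2 turned to 0.055 in 129S1/SvImJ and -0.0072 in PWD/Ph. Lrrtm4 turned to 0.50 in 129S1/SvImJ and 0.44 for 129S1/SvImJ minus C57BL/6J.

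With the correction on GC content alone, 23 turned, and where the value was another than with GC content and length: Nrxn2 turned to 0.095 in PWD/Ph and -0.14 for DBA/2J minus PWD/Ph. Nlgn1 turned to 0.18 in 129S1/SvImJ, -0.18 in C57BL/6J, -0.20 in PWD/Ph, 0.34 for A/J minus PWD/Ph, -0.12 for C57BL/6J minus DBA/1J and 0.18 for 129S1/SvImJ minus DBA/1J. Nlgn2 turned to -0.27 in 129S1/SvImJ, -0.024 in A/J, -0.20 in DBA/1J, 0.12 in DBA/2J, 0.56 in PWD/Ph, -0.21 for 129S1/SvImJ minus A/J, -0.12 for A/J minus DBA/2J and -0.61 for C57BL/6J minus PWD/Ph. Lrrtm1 turned to 0.016 in DBA/2J. Lrrtm2 turned to -0.17 in C57BL/6J. Lrrtm4 turned to 0.45 in 129S1/SvImJ, -0.032 in DBA/2J, -0.27 in PWD/Ph and 0.17 for C57BL/6J minus PWD/Ph.

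With limma on log2(FPKM + 1), 17 turned. Nrxn3 turned to -0.20 in DBA/2J and 0.27 for DBA/1J minus DBA/2J. Nlgn1 turned to -1.4e-04 in PWD/Ph, 0.21 for A/J minus DBA/2J and 0.26 for A/J minus PWD/Ph. Nlgn3 turned to 0.038 in 129S1/SvImJ, -0.18 in DBA/2J, -0.11 in PWD/Ph and 0.22 for A/J minus PWD/Ph. Lrrtm3 turned to 0.15 in 129S1/SvImJ, -0.37 in DBA/2J, -0.25 in PWD/Ph and 0.56 for DBA/1J minus DBA/2J. Lrrtm4 turned to 0.14 in 129S1/SvImJ, -0.13 in DBA/2J, -0.15 in PWD/Ph and 0.26 for C57BL/6J minus PWD/Ph. With log2(FPKM + 0.1), 16 turned, and where the value was another: Nrxn3 turned to -0.21 in DBA/2J. Nlgn1 turned to 0.22 for A/J minus DBA/2J and 0.27 for A/J minus PWD/Ph. Nlgn3 turned to 0.040 in 129S1/SvImJ and -0.19 in DBA/2J. Lrrtm3 turned to 0.17 in 129S1/SvImJ, -0.42 in DBA/2J, -0.28 in PWD/Ph and 0.62 for DBA/1J minus DBA/2J. Lrrtm4 turned to 0.15 in 129S1/SvImJ, -0.14 in DBA/2J, -0.16 in PWD/Ph and 0.28 for C57BL/6J minus PWD/Ph.

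Members called for sex within strains (0 in the report) numbered 1 with the GC and length correction, with a span of 0.3, with the correction and replicate block, and in each strain's own 6 libraries, and in all of these it was Lrrtm2 in A/J. Without 1 library they numbered 0 to 1, as did members called for the interaction. Strain calls numbered 21 of 54 with a span of 0.3, a fit whose share of all genes called is not given here.

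The replicate numbers did not pair the samples: of 18 pairs of same-numbered males and females, 3 correlated above 0.1 (r from -0.344 to 0.362) and 5 correlated best with their own number. With the replicate block 34 strain calls, 79 pair calls, 9 calls for any strain difference and 0 for sex were made. The shares of all genes called with the block are not given here. Depth limits Lrrtm3 most, with 156 counts in its shallowest library.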
